A study of Mus musculus with 2 samples.

Results

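Potassium channel genes were taken as every row of the merged count table whose symbol starts with Kcn and that had at least 30 unique molecular identifiers (UMIs, each a captured RNA molecule) over all cells, without Kcnq1ot1. This gave 59 of 79 such rows, among 24905 genes in the table and 14603 genes that passed the same limit. The count of UMIs, not the library or the cell type, chose them. Just inside the limit were Kcnh6 with 31 UMIs and Kcnj16 with 32, and just outside were Kcnd3os with 26 and Kcnj2 with 23. By the annotation 58 of the 59 are protein-coding genes, and the other, Kcnmb4os2, is a transcript on the opposite strand of Kcnmb4.

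The cells came from hypothalami of CD-1 mouse pups aged postnatal day 1 to 4, and were sorted for the red fluorescent protein tdTomato. Both groups carried Sim1-Cre and the Ai14 tdTomato reporter, which stays on in any cell that expresses, or whose precursors expressed, Cre under the control of Sim1, a transcription factor gene of the paraventricular nucleus. The control library was Sim1-Cre;tdTomato+/- and the Sim1 heterozygous library was Sim1-Cre;tdTomato+/-;Sim1+/-, each 1 Drop-seq library from 6 pooled pups. The study asks what the loss of 1 copy of Sim1 does to Irx3 and Irx5 in this lineage. With 1 library per genotype no test was possible: differences below compare 2 libraries, not 2 conditions, and the 95% intervals in square brackets cover counting error only.

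The 2806 control cells and 2454 Sim1 heterozygous cells that were kept held 6524704 and 5390356 UMIs, with medians of 1772.5 and 1583 UMIs per cell. The libraries shared 0 cell barcodes. A set of 7 neuron markers summed to 11698 and 10196 CPM (UMIs per 1000000 UMIs), and 7 astroglia markers to 204 and 240 CPM. Markers of other cells moved between the libraries: 3 pituitary genes summed to 349 and 5.94 CPM, 4 fibroblast genes to 22.5 and 3.15, and 4 microglia genes to 12.6 and 2.41. Their part in the differences between the libraries was not tested.

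Potassium channels let potassium leave the cell, and so set the resting potential, end each action potential and space the next one. The voltage-gated families (Kv) open on depolarisation, the BK, SK and SLO2 channels answer to intracellular calcium or sodium, the inward rectifiers (Kcnj) and tandem-pore channels (Kcnk) act near rest, and accessory subunits tune how a pore opens or where it sits. In the hypothalamus they shape the bursts with which magnocellular neurons release vasopressin and oxytocin, and in astroglia they carry the uptake of extracellular potassium.

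All 59 genes together were sparse, with 8168 UMIs in the control and 7837 in the Sim1 heterozygous library, or 1252 and 1454 CPM. Over all barcodes, totals per gene ran from 31 to 1443 UMIs with a median of 141. The 6 most abundant genes held 42.4% of all 16015 UMIs. The most UMIs of any channel gene in 1 cell was 10, for Kcnd2, and 4 genes were never above 1 in a cell. At this depth most cells lack a UMI of most channels, so levels were read from UMIs summed over cells. In such sums, fewer cells of a type and less RNA per cell cannot be told apart. The reads mark 3' ends, so a level is per molecule and was not divided by gene length.

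The A-type channel and its partners led. Kcnd2, a Kv4 pore subunit of the transient A-type current, was at 122 CPM in the control and 120 in the Sim1 heterozygous library. Kcnip1, a calcium-binding protein that attaches to Kv4 pores, followed at 118 and 114 CPM. Of the other KChIP genes, Kcnip4 was at 46.3 and 66.4 CPM and Kcnip2 at 19.8 and 25.2. The 4 Kv4 partner genes together came to 190 and 213 CPM, above the 137 and 139 CPM of both Kv4 pores. Kcnd2 and Kcnip1 each had an interval of the library ratio that holds 0, at log2 -0.02 [-0.18 to 0.13] and -0.05 [-0.21 to 0.10].

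Among the other voltage-gated pores, Kcnc1, a Kv3 channel that allows fast firing, was at 92.4 and 120 CPM. Kcnq3, a subunit of the M-current channel that restrains repetitive firing, was at 70.0 and 83.3 CPM. Kcnb2, a Kv2 delayed rectifier, was at 22.7 and 17.8 CPM. The Kv1 channels of axons were low, with Kcna6 at 22.4 and 24.3 CPM and Kcna2 at 19.2 and 24.5. Kcnab2, the most abundant of 3 Kv1 beta subunits, was at 5.52 and 5.19 CPM. Kcnh7, of the ERG branch, led 7 EAG, ERG and ELK genes at 23.6 and 23.4 CPM. Kcns2, which forms no channel alone and modifies Kv2, led 5 silent subunits at 11.04 and 15.95 CPM.

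The channels gated by ions or by membrane and metabolic signals were led by Kcnma1, the pore of the calcium- and voltage-gated BK channel, at 76.2 and 106 CPM. Its neuronal beta subunit Kcnmb4 was at 31.1 and 19.7 CPM. Kcnt1, a sodium-activated SLO2 channel, was at 33.7 and 44.5 CPM. Of the tandem-pore leak channels, Kcnk2 was at 41.4 and 37.7 CPM and Kcnk10 at 34.0 and 37.7. Kcnj9 and Kcnj3, inward rectifier subunits opened by G proteins, were at 28.8 and 58.6 CPM and at 19.3 and 29.7 CPM. The SK channel with the most UMIs was Kcnn3, at 11.2 and 11.3 CPM. Kcne1l, the only single-pass partner that passed the limit, was at 3.68 and 4.27 CPM.

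Promoter sequence is given for 3 genes on which the results turn: Kcnh1, the channel gene most enriched in hormone-rich cells, and Kcnj9 and Kcnj10, neighbours on chromosome 1 that were both higher in the Sim1 heterozygous library but in different cells. Each line holds the 250 bases before the RefSeq start (GRCm38.p6), read 5′ to 3′ on the gene's own strand, with 2 motifs in capitals wherever their letters occur on either strand: TATAAA, the core of a TATA box, and the CCAAT box. The windows are chr1:192190527-192190776 on the plus strand for Kcnh1, chr1:172329323-172329572 on the minus strand for Kcnj9 and chr1:172340960-172341209 on the plus strand for Kcnj10.
Kcnh1: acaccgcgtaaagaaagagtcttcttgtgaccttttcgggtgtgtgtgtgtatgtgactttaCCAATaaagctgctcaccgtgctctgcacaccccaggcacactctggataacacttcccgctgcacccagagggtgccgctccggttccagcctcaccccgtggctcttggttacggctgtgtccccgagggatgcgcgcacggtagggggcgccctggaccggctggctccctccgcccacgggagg
Kcnj9: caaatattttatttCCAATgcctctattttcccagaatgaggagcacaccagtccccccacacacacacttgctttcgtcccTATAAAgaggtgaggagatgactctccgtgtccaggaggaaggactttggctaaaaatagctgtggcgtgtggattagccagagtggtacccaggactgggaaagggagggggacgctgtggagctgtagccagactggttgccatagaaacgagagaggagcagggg
Kcnj10: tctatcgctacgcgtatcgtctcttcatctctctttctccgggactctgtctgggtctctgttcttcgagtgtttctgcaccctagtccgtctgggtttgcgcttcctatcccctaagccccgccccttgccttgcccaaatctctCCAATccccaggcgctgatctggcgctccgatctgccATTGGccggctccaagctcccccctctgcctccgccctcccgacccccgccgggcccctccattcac

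Kcnj9 and Kcnj10 are read away from each other, with 11892 bases between their starts in the GENCODE M21 annotation, which differ slightly from the RefSeq starts. Their windows differ in base composition, with 52% G and C for Kcnj9 and 62% for Kcnj10. Kcnh1 also had 62%, against a median of 52.4% over all 32851 RefSeq windows and 60% for the 44 channel genes with a window. Kcnj9 held a TATAAA match that begins 168 bases before the start, farther out than a TATA box usually lies, and a CCAAT match 236 bases before it. Kcnj10 held a CCAAT match 104 bases before its start and another on the opposite strand 67 bases before it, where the letters read ATTGG. Kcnh1 held 1 CCAAT match, 188 bases before the start. A window was found for 44 of the 59 genes, 66 windows in all. Of these, 2 (3.03%) held TATAAA and 21 (31.8%) held CCAAT, against 12.4% and 33.8% of all windows. A match is only a description of the letters and says nothing of a factor's binding.

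Cells were next gated on the UMIs of single genes, none of them a potassium channel gene. Hormone-rich cells had at least 10 Avp or 10 Oxt UMIs, and Crh, Trh, Foxb1, Neurod6 and Tcf7l2 cells had at least 2 UMIs of that gene. These gates held 130, 43, 67, 658, 56 and 120 control cells and 28, 41, 46, 874, 30 and 23 Sim1 heterozygous cells. Outside all 6 gates were 3178 cells, and 34 cells were in more than 1 gate. Within each library the level in gated cells was set against that in all other cells. The UMIs observed in both libraries were then divided by those expected from the other cells. A gene was called higher at 2-fold or more with at least 10 UMIs observed and at least 1.5-fold in each library. It was called lower by the mirrored rule with at least 10 UMIs expected. Gated cells were deeper than the others, with medians of 1840 to 3084 UMIs per cell in the 6 gates, and a gate of 2 UMIs picks deeper cells by construction.

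Hormone-rich cells stood out by Kcnh1, Kcnmb4 and Kcnip4. In these cells 5 of the 59 genes were called higher and 1 lower, against 1.7% and 4.88% of all genes. Of genes with at least 10 UMIs observed or expected there, 3.7% and 10.2% were called. Of the 59 genes, 19 had at least 10 UMIs observed and 16 at least 10 expected. The median log2 of observed over expected UMIs was -0.27 for the 59 genes and -0.20 for all genes, with 1 UMI added to each count. Avp and Oxt alone made up 10.43% and 10.46% of the UMIs of hormone-rich cells. A total without them and without mitochondrial genes gave the same 5 and 1 calls by number. The sort for tdTomato can set how many hormone-rich cells each library holds, and this was not tested.

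**Figure D1:**
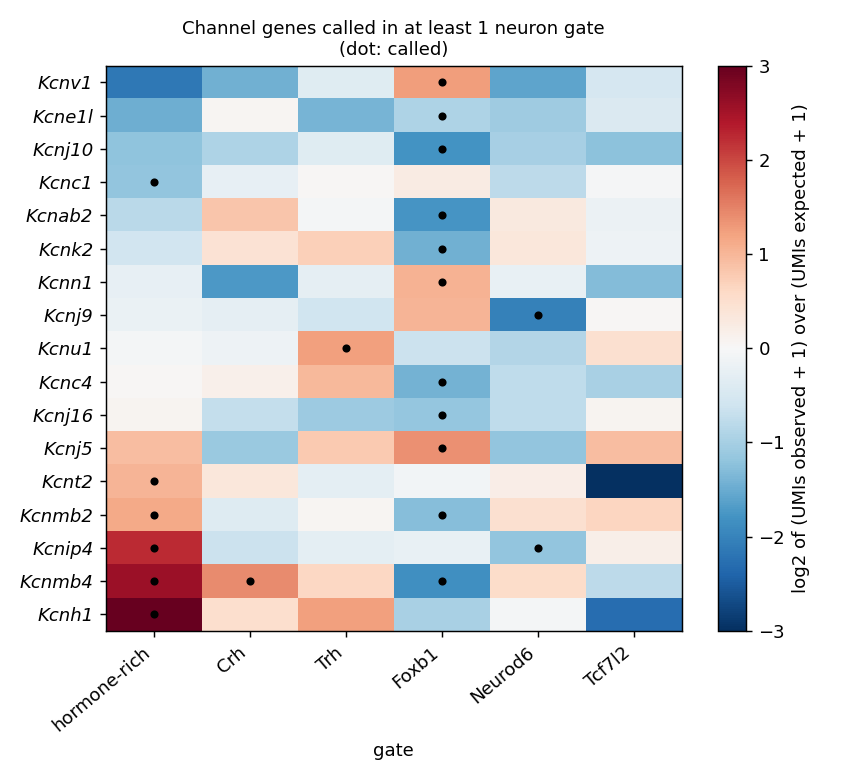
Each square is the log2 of observed over expected UMIs, with 1 UMI added to both, for a potassium channel gene (rows) in a gate (columns), both libraries pooled, and the colours end at 3 in either direction. A dot marks a called gene. Kcnh1, Kcnmb4 and Kcnip4 are the darkest red squares of the hormone-rich column, and the Foxb1 column holds 3 dots on red and 8 on blue.

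Kcnh1 encodes a slowly opening voltage-gated channel of the EAG branch. In the control library hormone-rich cells held 21 of its UMIs, at 57.3 CPM [35.5 to 87.6] against 6.33 in other cells. In the Sim1 heterozygous library they held 8, at 104 CPM [44.8 to 204] against 4.33. Both libraries thus had a level in hormone-rich cells above that in their other cells. Over both, 29 UMIs were observed where 2.66 were expected, a log2 of 3.45 [2.87 to 3.97] that takes the expected count as fixed. Hormone-rich cells, 158 of 5260, held 31.9% of all Kcnh1 UMIs. With every cell thinned to 1000 UMIs, with 364 control and 750 Sim1 heterozygous cells too shallow to use, 9 of 145 hormone-rich cells (6.21% [2.88 to 11.5]) had a Kcnh1 UMI. In cells of no gate, with the astroglia-gated cells also left out, it was 8 of 2263 (0.354%), and in astroglia-gated cells 0 of 57, which allows up to 5.26%. Unthinned, the shares in hormone-rich and astroglia-gated cells were 15.2% and 0%, at median depths of 2237 and 1115.5 UMIs.

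Kcnip4 had 62 UMIs in control hormone-rich cells, at 169 CPM [130 to 217] against 39.0 in the other cells. In the Sim1 heterozygous library it had 32, at 415 CPM [284 to 586] against 61.4. Its protein binds Kv4 pores, but the pore gene Kcnd2 was not called in hormone-rich cells, at 126 and 143 CPM. Together 94 Kcnip4 UMIs were observed against 19.0 expected, a log2 of 2.31 [1.998 to 2.597]. After thinning, 30 of 145 hormone-rich cells (20.7% [14.4 to 28.2]) had a Kcnip4 UMI, 99 of 2263 (4.37%) outside the gates and 1 of 57 (1.75%) in the astroglia gate. Kcnip4 lies on chromosome 5 from 48389502 to 49524907 (mm10, minus strand). Its exons overlap those of 2 other annotated genes on the opposite strand, and whether the counting used strand was not given in the sources used here.

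Kcnmb4, which slows BK channels in neurons and makes them resist some blockers, had 57 UMIs in control hormone-rich cells, at 156 CPM [118 to 202] against 23.7. It had 8 in those of the Sim1 heterozygous library, at 104 CPM [44.8 to 204] against 18.4. The pooled value was 65 UMIs against 10.1 expected, a log2 of 2.68 [2.31 to 3.03]. After thinning the share of cells with a UMI was 14.5% [9.19 to 21.3] in hormone-rich cells, 2.83% outside the gates and 7.02% [1.95 to 17.0] in astroglia-gated cells. Kcnmb4 UMIs were thus found outside hormone-rich cells as well. The pore Kcnma1 went the other way without being called, at 54.6 against 77.5 CPM in the control and 38.9 against 107 in the Sim1 heterozygous library. Kcnmb4 lies on chromosome 10 from 116417861 to 116473878 (mm10, minus strand) and shares 716 bases with Kcnmb4os2, so their UMIs may not be separate.

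**Figure D2:**
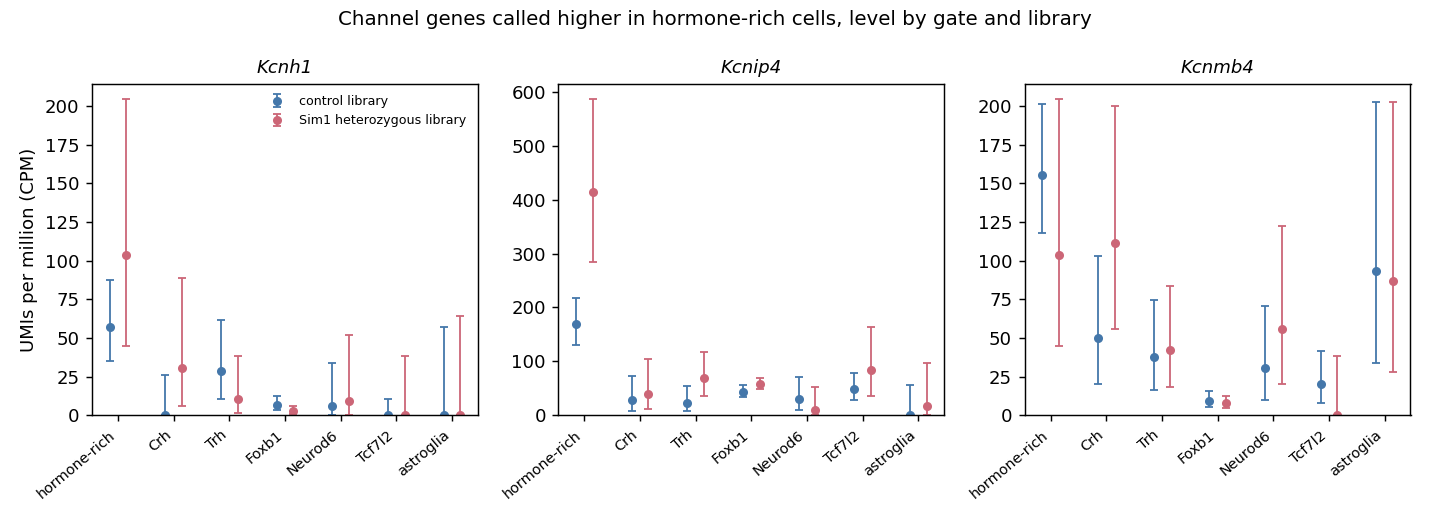
Points are CPM of Kcnh1, Kcnip4 and Kcnmb4 in the cells of each gate, blue for the control library and red for the Sim1 heterozygous library, and bars are exact 95% Poisson intervals for counting error. The hormone-rich points are the highest in 5 of 6 gene and library pairs, and Kcnmb4 of the Sim1 heterozygous library is at 112 CPM in Crh cells and 104 in hormone-rich cells.

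The other channels called in hormone-rich cells rested on few UMIs. Kcnmb2, a BK beta subunit that makes the channel inactivate, had 13 UMIs against 5.37 expected, 2.40-fold higher in the control library and 2.55-fold in the Sim1 heterozygous library. Kcnt2, a sodium-activated SLO2 channel, had 14 against 6.37, of which only 2 came from the Sim1 heterozygous library, and its log2 was -0.08 after thinning. Kcnc1 was the gene called lower, with 19 UMIs against 44.3. It was at 40.9 against 95.5 CPM in the control and 51.8 against 121 in the Sim1 heterozygous library. Genes with no UMI in hormone-rich cells were Kcnab1, Kcne1l, Kcng2, Kcnh5, Kcnj10, Kcnk12 and Kcnv1, which a low total number of UMIs allows.

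Within the hormone-rich cells, those with at least 10 Oxt UMIs (69 control and 10 Sim1 heterozygous) were set against those with at least 10 Avp and under 10 Oxt UMIs (61 and 18). Of 19 genes with at least 10 UMIs in these cells, 1 was at least 2-fold higher in Oxt-rich cells and 4 lower, against 4.09% and 9.51% of all 6707 genes with as many UMIs. The interval left out 0 for 1 gene. That gene was Kcnh1, with 25 UMIs in Oxt-rich and 4 in Avp-rich cells, or 84.3 CPM [54.5 to 124] and 27.2 CPM [7.41 to 69.7]. The log2 ratio was 1.37 [0.10 to 3.61], but -0.10 when the gate asked for 20 UMIs. Kcnip4 did not separate them, at 209 and 218 CPM, nor did Kcnmb4, at 131 and 177 CPM with a log2 ratio of -0.45 [-1.18 to 0.35]. Oxt-rich cells were deeper, with a median of 3291 UMIs in the control library against 1629 in its Avp-rich cells.

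Crh cells, which express corticotropin-releasing hormone, had 1 gene called higher and 0 lower, against 0.966% and 1.51% of all genes, or 2.93% and 4.68% of those with at least 10 UMIs observed or expected. Of the 59 genes, 8 had at least 10 UMIs observed and 8 at least 10 expected. The medians were -0.27 for the 59 genes and -0.08 for all genes. The gene was again Kcnmb4. It had 7 UMIs in control Crh cells, at 49.9 against 30.7 CPM, and 11 in the Sim1 heterozygous ones, at 112 against 18.0. Of the 84 Crh cells 17 were also hormone-rich, 16 of them Avp-rich. In Crh cells of no other gate its log2 was 1.63, close to the 1.57 of all Crh cells. It was 0.70 in the control library alone and 2.64 in the Sim1 heterozygous library alone. After thinning it was 1.23, and with the gate at 1 UMI 1.22. Under the control library alone, thinning or the gate at 1 UMI, 0 genes were called higher. The most abundant channels sat near the level of other cells, such as Kcnip1 with 32 UMIs against 27.7 and Kcnq3 with 19 against 18.0. Kcnd2 had 21 against 29.1, a log2 interval of -1.16 to 0.14 that holds 0.

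Trh cells, which express thyrotropin-releasing hormone, also had 1 gene called higher and 0 lower, against 0.918% and 1.78% of all genes, or 1.98% and 3.94% of those with enough UMIs. Of the 59 genes, 18 had at least 10 UMIs observed and 14 at least 10 expected. The medians were -0.07 for the 59 genes and -0.05 for all genes. The gene called was Kcnu1, of the SLO3 branch that is known from sperm. It had 10 UMIs against 3.71 expected, 3 from the control and 7 from the Sim1 heterozygous library. The call rests on the smallest count the rule admits. Kcnc4, a Kv3 channel, had 12 UMIs against 5.65, and Kcnk2 26 against 15.4, but in the control library their ratios were 1.22 and 0.915.

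Foxb1 cells had the most channels called. Foxb1 marks neurons of the mammillary region, and these were the largest gate, with 23.4% [21.9 to 25.1] of control and 35.6% [33.7 to 37.5] of Sim1 heterozygous cells. In them 3 genes were called higher and 8 lower, against 2% and 4.05% of all genes, or 2.1% and 4.18% of those with enough UMIs, with medians of -0.08 for the 59 genes and 0.01 for all genes. All 59 had at least 10 expected UMIs here, so a low level could be called for every one. In the 5 other neuron gates it could be called for 16 genes at most. At least 10 UMIs were observed in Foxb1 cells for 52 of the 59. The numbers of calls are thus not comparable between gates.

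The 3 genes higher in Foxb1 cells came from 3 families. Kcnj5, a G protein-gated inward rectifier subunit, was at 4.77 against 2.57 CPM in the control and 11.7 against 3.79 in the Sim1 heterozygous library, 33 UMIs against 12.2 in all. Kcnn1, an SK channel, was at 14.3 against 5.93 and 16.2 against 8.22 CPM, 57 UMIs against 27.0. Kcnv1, a silent subunit, was at 10.9 against 6.53 and 11.2 against 3.16 CPM, 41 UMIs against 16.6. Each had more than 1.5 times the level of the other cells in both libraries. With cells thinned to 1000 UMIs the log2 of observed over expected UMIs was 1.72 for Kcnn1 and 1.02 for Kcnv1. For Kcnj5 it was 0.60, down from 1.43 and under 2-fold, with a UMI in 0.529% of thinned Foxb1 cells and 0.309% of thinned cells outside the gates. In the control library alone Kcnj5 was at 0.89 and Kcnv1 at 0.74. Kcnn1 was under 2-fold with the gate at 3 UMIs, at 0.78. Kcnj9 had 251 UMIs against 123, 49.8% of its total, but was not called, since its ratio was 1.43 in the control and 2.32 in the Sim1 heterozygous library. Kcnj3 was likewise at 0.940 and 2.57, and Kcnh8, an ELK channel, at 1.43 and 2.62.

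Of the 8 genes lower in Foxb1 cells, the largest counts were those of Kcnk2 and Kcnmb4. Kcnk2, a tandem-pore channel opened by stretch and lipids, was at 21.8 against 47.1 CPM in the control library and 16.2 against 52.8 in the other, 68 UMIs against 187. Kcnmb4 was at 9.54 against 37.4 and 8.08 against 27.8 CPM, 32 UMIs against 117. Kcnc4 had 25 UMIs against 68.2, Kcnmb2 21 against 52.2 and Kcnab2, a Kv1 beta subunit, 7 against 26.5. These low values were found in both libraries. Kcnj10, Kcnj16 and Kcne1l were lower too, with 6 UMIs against 23.2, 6 against 14.6 and 9 against 18.1, and their UMIs lay mostly in astroglia-gated cells. When those cells were left out, 5 genes instead of 8 were called, and the log2 of Kcnj10 was -0.59 and that of Kcnj16 -0.26. Kcne1l stayed past 2-fold there, at -1.15. After thinning Kcne1l was at -0.66, short of 2-fold.

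Neurod6 cells had 0 genes called higher and 2 lower, against 0.719% and 1.29% of all genes, or 2.01% and 3.64% of those with enough UMIs. Kcnj9 was lower, with 1 UMI in each library where 11.2 were expected in all, at 6.07 against 29.4 CPM and 9.37 against 59.6 CPM. Kcnip4 was lower, with 6 UMIs against 14.9, at 30.4 against 46.7 and 9.37 against 67.6 CPM. The low counts leave wide intervals, a log2 of -5.53 to -0.63 for Kcnj9 and -2.76 to -0.19 for Kcnip4. Kcnip4 was short of 2-fold after thinning, at -0.63, and Kcnj9 and Kcnip4 with the gate at 1 UMI, at -0.72 and -0.60. Kcnd2 was above the level of other cells in both libraries without reaching 2-fold, at 206 against 120 and 225 against 118 CPM, 58 UMIs against 32.3. Its partner Kcnip1 was at 182 against 116 and 178 against 113 CPM. The medians were -0.06 for the 59 genes and -0.08 for all genes. Of the 59 genes, 10 had at least 10 UMIs observed in Neurod6 cells and 11 at least 10 expected.

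Tcf7l2 cells had 0 genes called in either direction, against 1.3% higher and 1.62% lower of all genes, or 2.67% and 3.41% of those with enough UMIs. Of the 59 genes, 17 had at least 10 UMIs observed and 15 at least 10 expected. The medians were 0.01 for the 59 genes and -0.06 for all genes. Tcf7l2 is a Wnt pathway transcription factor gene strong in thalamic neurons. The highest pooled ratio among genes with at least 10 UMIs was that of Kcnq3, at 119 against 67.3 and 188 against 81.4 CPM, 59 UMIs against 30.9 with a log2 interval of 0.54 to 1.30. Kcnd2 was at 172 against 119 and 219 against 118 CPM, 80 UMIs against 52.3. Both stayed under the 2-fold rule. Kcnh1 had 0 UMIs in the 143 Tcf7l2 cells, and the limit of 3 UMIs lies at 8.73 CPM in the control and 31.3 CPM in the Sim1 heterozygous library.

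Cells with at least 5 UMIs summed over 7 astroglia markers (40 control and 52 Sim1 heterozygous cells) were taken as a comparison outside the neurons. These cells had 4 potassium channel genes called higher and 2 lower, against 4.37% and 5.04% of all genes. Of genes with enough UMIs 22.4% and 27.4% were called, and of the 59 genes 5 and 4 had enough. Kcnj10, the main inward rectifier of astroglia, had 11 UMIs in the control library at 171 CPM [85.2 to 305] and 27 in the Sim1 heterozygous library at 469 CPM [309 to 683]. Its level in the other cells was 0.464 and 0.938 CPM. Kcnj16, which pairs with Kcnj10, was at 140 and 156 CPM against 0.155 and 2.44. Kcne1l was at 186 and 209 CPM against 1.86 and 2.06. These 3 genes thus had 82.6%, 56.3% and 51.1% of their UMIs in 92 cells. Kcnmb4 was the fourth, with 11 UMIs against 3.05 expected. Kcnc1 was lower, with 1 UMI against 12.995, and Kcnip1 with 3 against 14.3. The 7 astroglia markers had 1 UMI in control and 0 in Sim1 heterozygous hormone-rich cells.

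**Figure D3:**
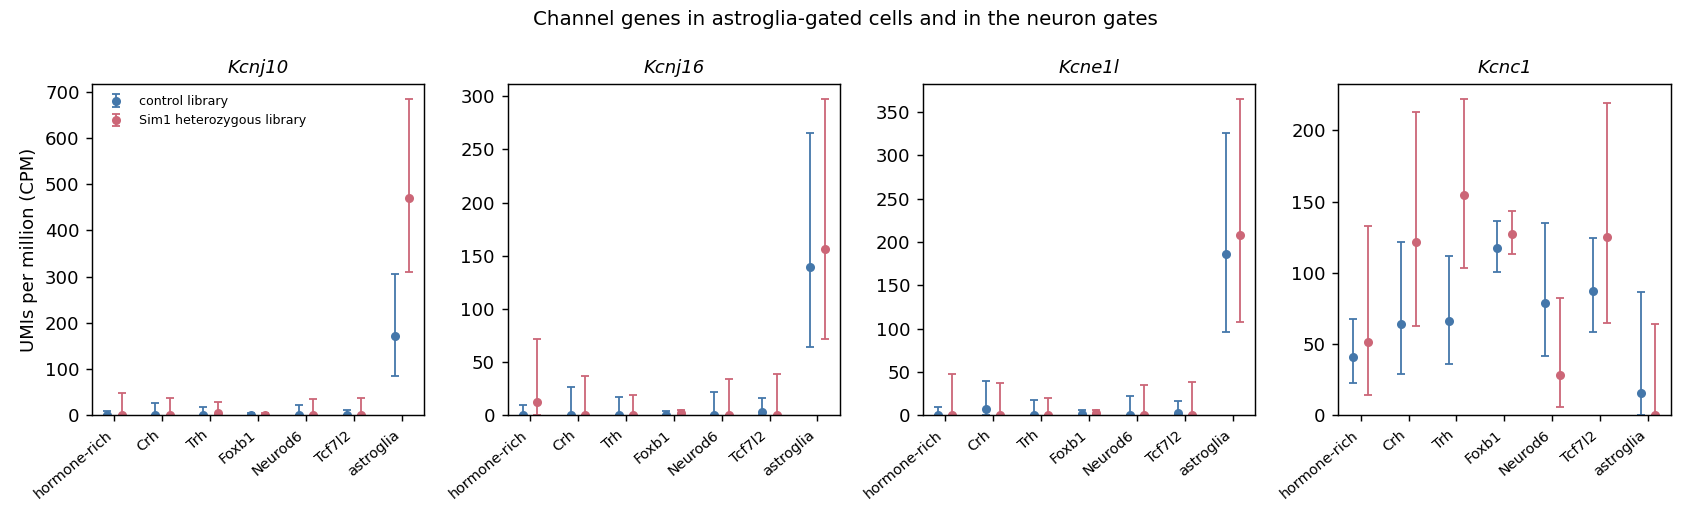
Points are CPM of Kcnj10, Kcnj16, Kcne1l and Kcnc1 in each gate, blue for the control and red for the Sim1 heterozygous library, with exact 95% Poisson intervals as bars, and each gene has its own vertical scale. Kcnj10, Kcnj16 and Kcne1l sit at 140 to 469 CPM in the astroglia gate and at 12.96 CPM or less in the 6 neuron gates, while Kcnc1 is lowest in the astroglia gate.

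Between the libraries, the inward rectifiers were the family with the highest median ratio. Over all cells 7 of the 59 genes were at least 1.5-fold higher in the Sim1 heterozygous library and 3 lower, against 7.81% and 9.27% of all genes. With an interval that also leaves out 0 it was 6 and 2, against 6.04% and 7.45%. The median log2 ratio (Sim1 heterozygous over control, with 1 UMI added per library) was 0.20 for the 59 genes and 0.04 for all genes. For 43 of the 59 the interval held 0. Of the 8 inward rectifier genes 6 were higher, with a family median of 1.09, and the family came to 71.3 CPM in the control and 131 in the Sim1 heterozygous library. The next highest family median was 0.35, that of the Kv4 partners.

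**Figure D4:**
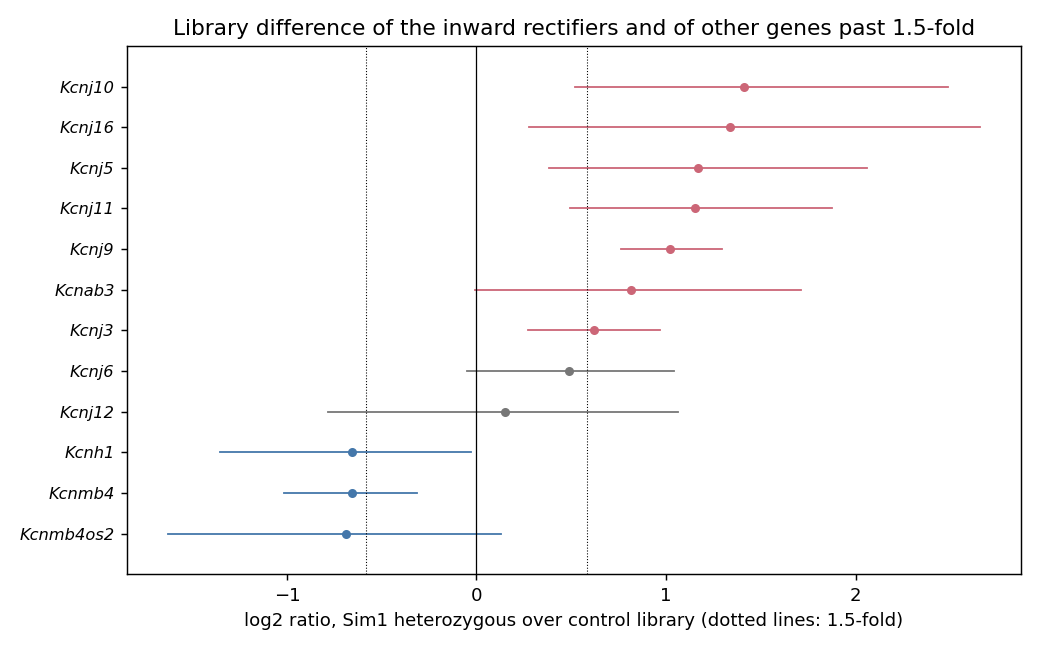
Each point is the log2 ratio of CPM in the Sim1 heterozygous over the control library, all cells, with 1 UMI added per library, for the 8 inward rectifier (Kcnj) genes and every other gene past 1.5-fold. Bars are 95% conditional binomial intervals for counting error, dotted lines mark 1.5-fold, and red and blue points lie past them. Of the 7 red points, 6 are inward rectifier genes, and the 3 blue points are Kcnh1, Kcnmb4 and Kcnmb4os2.

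Kcnj9, a subunit of the G protein-gated inward rectifiers (GIRK channels, which inhibit neurons on release of transmitters that act through Gi), had 188 UMIs in the control and 316 in the Sim1 heterozygous library. Its levels were 28.8 CPM [24.8 to 33.2] and 58.6 CPM [52.3 to 65.5], a log2 ratio of 1.02 [0.76 to 1.29]. The 2 intervals do not overlap. Kcnj3, the GIRK subunit needed for most neuronal channels of the kind, had 126 and 160 UMIs and a log2 ratio of 0.62 [0.27 to 0.97]. Kcnj5 had 20 and 38 UMIs, at 1.17 [0.38 to 2.06]. Kcnj6, the remaining GIRK subunit, had 55 and 64 UMIs, at 0.49 [-0.05 to 1.04], and was not called. Kcnj9 and Kcnj3 each share exon bases with 1 annotated gene on the opposite strand, Gm36937 and Gm26794, so part of their UMIs may belong to those.

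The other inward rectifiers that were higher were of different kinds. Kcnj11, the pore of the ATP-sensitive channel that couples metabolism to firing, had 29 and 54 UMIs, 4.44 and 10.02 CPM, a log2 ratio of 1.15 [0.50 to 1.88]. It was at 1.30 [0.49 to 2.20] in cells outside all 6 gates. Kcnj10 had 14 and 32 UMIs, at 1.41 [0.52 to 2.49], and Kcnj16 had 10 and 22, at 1.34 [0.28 to 2.66]. Astroglia-gated cells made up 1.43% [1.02 to 1.94] of control and 2.12% [1.59 to 2.77] of Sim1 heterozygous cells, and their part in these ratios was not tested apart from leaving them out. Without them the log2 ratio was 0.86 for Kcnj10, from 3 and 5 UMIs, and 3.08 for Kcnj16, from 1 and 13 UMIs, and Kcnj9 was at 1.03. Kcnab3, a Kv1 beta subunit, was at 0.82 with an interval that holds 0.

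The genes lower in the Sim1 heterozygous library included the channels of hormone-rich cells. Kcnmb4 had 203 and 106 UMIs and a log2 ratio of -0.66 [-1.01 to -0.32]. Kcnh1 had 60 and 31, at -0.66 [-1.35 to -0.03]. Kcnmb4os2, on the opposite strand of Kcnmb4, had 36 and 18, at -0.69 [-1.63 to 0.13], which holds 0. Hormone-rich cells were 4.63% [3.89 to 5.48] of control and 1.14% [0.759 to 1.64] of Sim1 heterozygous cells. In cells outside all gates Kcnmb4 was at -0.40 [-0.90 to 0.07] and Kcnh1, from 25 and 11 UMIs, at -0.55 [-1.79 to 0.46]. Both were under the 1.5-fold rule, Kcnh1 by little, and both intervals held 0. Kcnip4, the third gene of the hormone-rich cells, went the other way, with 302 and 358 UMIs and a log2 ratio of 0.52 [0.30 to 0.75].

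Smaller differences whose intervals left out 0 were found, besides Kcnip4, for abundant genes such as Kcnc1 at 0.38 [0.22 to 0.54], Kcnma1 at 0.47 [0.30 to 0.65], Kcnt1 at 0.40 [0.13 to 0.67] and Kcnq3 at 0.25 [0.06 to 0.44]. All of these were higher in the Sim1 heterozygous library and under 1.5-fold. Kcnk2, Kcnk10, Kcnh7, Kcna6, Kcna2, Kcnb2 and Kcnip2 had intervals that hold 0, with log2 ratios from -0.34 for Kcnb2 to 0.35 for Kcna2. No gene of the Kv3, Kv7, Kv2, Kv4, Kv1, SK, SLO2 or tandem-pore families passed 1.5-fold in either direction over all cells.

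The libraries were also compared within a gate, for genes with at least 30 UMIs there. In Foxb1 cells 37 of the 59 genes could be compared, and 7 were at least 1.5-fold higher in the Sim1 heterozygous library and 1 lower, against 8.81% and 7.84% of all genes compared. Kcnj9 had 55 UMIs in control and 196 in Sim1 heterozygous Foxb1 cells, at 37.5 CPM [28.2 to 48.8] and 88.0 CPM [76.1 to 101], a log2 ratio of 1.21 [0.79 to 1.69]. Kcnj3 had 27 and 103 UMIs, at 18.4 and 46.2 CPM, a log2 ratio of 1.29 [0.71 to 1.998]. Kcnj5 had 7 and 26, at 1.15 [0.05 to 2.74], and Kcnj6 had 10 and 26, at 0.69 with an interval that holds 0. All 4 GIRK subunits were thus above 1.5-fold within these cells, but Kcnj6 was at 0.22 with the Foxb1 gate at 1 UMI and 0.57 with it at 3 UMIs, both under that fold. Outside all gates Kcnj9 was at 0.54 [0.13 to 0.94], Kcnj6 at 0.37 [-0.34 to 1.07] and Kcnj3 at -0.05 [-0.62 to 0.48]. Kcnj5 had under 30 UMIs there and was at 0.93, above 1.5-fold. The difference between Foxb1 cells and other cells was not tested.

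Sim1 heterozygous Foxb1 cells were deeper than control ones, with medians of 2094.5 and 1840 UMIs. With Foxb1 cells thinned to 1000 UMIs, 22 of 585 control cells (3.76% [2.37 to 5.64]) and 74 of 738 cells of the Sim1 heterozygous library (10.03% [7.96 to 12.4]) had a Kcnj9 UMI. For Kcnj3 the thinned shares were 2.05% [1.06 to 3.56] and 3.52% [2.31 to 5.12]. Outside all gates, with astroglia-gated cells also left out, the thinned share for Kcnj9 was 1.71% [1.11 to 2.52] in the control library. It was 4.84% [3.47 to 6.56] in the other library, and these intervals do not overlap. Kcnj3 was at 1.65% and 1.49% there. The Kcnj9 difference at matched depth was thus not confined to Foxb1 cells. In astroglia-gated cells no thinned cell had a UMI of Kcnj9 or Kcnj3, in 32 control and 25 Sim1 heterozygous cells. From the thinned UMIs of Foxb1 cells the log2 ratio was 1.45 for Kcnj9, 0.66 for Kcnj3, 0.25 for Kcnj6 and -0.01 for Kcnj5. The value of Kcnj9 was as large at matched depth, that of Kcnj3 fell by over 1.5 times, and those of Kcnj6 and Kcnj5 were under 1.5-fold. Few thinned Foxb1 cells had a UMI of the latter 2, control against Sim1 heterozygous 3 and 5 for Kcnj6 and 3 and 4 for Kcnj5. Such counts cannot tell a loss of the difference from a loss of UMIs. In unthinned Foxb1 cells with at least 1000 UMIs, Kcnj9 was at 1.21, Kcnj3 at 1.23, Kcnj6 at 0.58 and Kcnj5 at 0.985. Unthinned shares for Kcnj9 were 7.29% and 18.0% in Foxb1 cells, and 5.23% and 6.55% outside the gates.

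**Figure D5:**
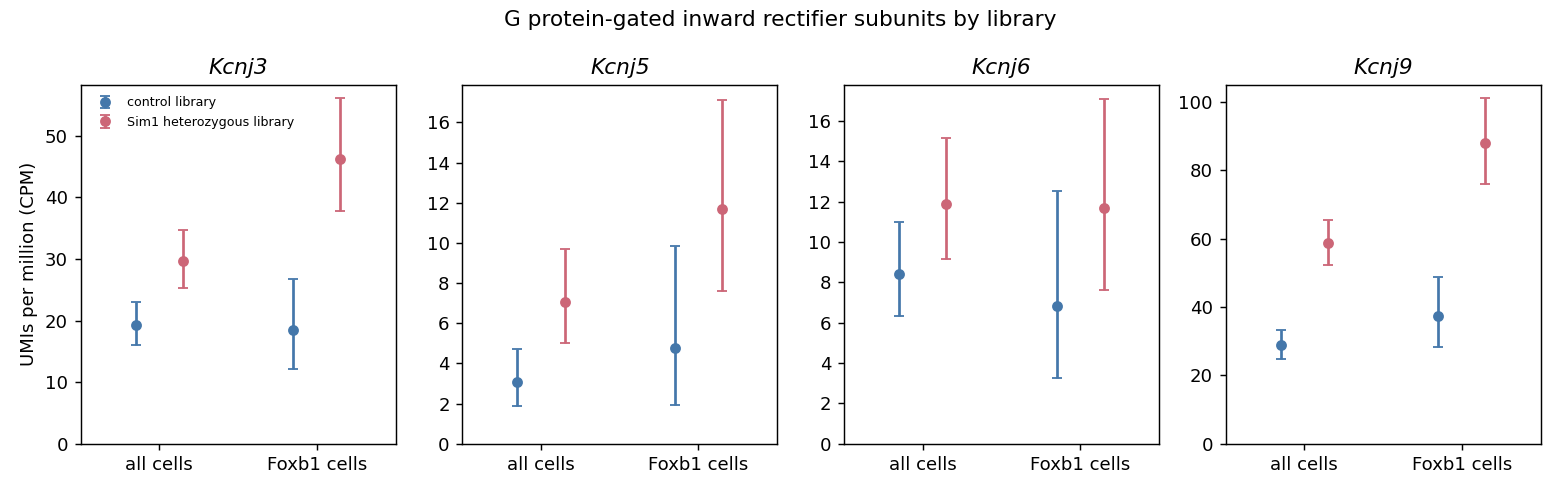
Points are CPM of the 4 GIRK subunit genes over all cells and in Foxb1 cells, blue for the control and red for the Sim1 heterozygous library, with exact 95% Poisson intervals as bars, and each gene has its own vertical scale. The intervals of the libraries do not overlap for Kcnj9 and Kcnj3, over all cells and in Foxb1 cells, while those of Kcnj6 overlap in both.

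The other genes higher in Foxb1 cells of the Sim1 heterozygous library were Kcnt1 with 43 and 106 UMIs, at 0.68 [0.18 to 1.25], Kcnt2 with 14 and 42, at 0.92 [0.08 to 1.97], and Kcns2 with 11 and 30, at 0.77 with an interval that holds 0. Kcnt1 and Kcnt2 encode the sodium-activated potassium channels. Kcnh4, an ELK channel, was the gene that was lower, with 42 and 38 UMIs, at -0.74 [-1.42 to -0.08]. From the thinned UMIs Kcnh4 was at -0.10, with a UMI in 2.74% and 2.44% of thinned cells, so its call was lost at matched depth. Kcnt1 was also under 1.5-fold, at 0.42 thinned and 0.29 with the gate at 1 UMI. Kcnt2 was at 1.47 thinned, but at 0.45 and 0.57 with the gate at 1 and 3 UMIs. Kcns2 was at 1.25 thinned. Pituitary genes in these Foxb1 cells summed to 328 and 2.69 CPM, and their part was not tested.

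In the smaller gates few genes had 30 UMIs. In hormone-rich cells 4 did, and Kcnip4, at 169 and 415 CPM, had a log2 ratio of 1.32 [0.63 to 1.93], against 16.8% higher and 12.4% lower among all genes compared there. Kcnmb4 was at -0.44 [-1.86 to 0.49], Kcnip1 at -0.41 [-1.84 to 0.52] and Kcnd2 at 0.28 [-0.91 to 1.15], which 28 Sim1 heterozygous cells could not resolve. Outside all gates Kcnip4 was also higher, with 146 and 172 UMIs, at 0.80 [0.47 to 1.13]. In Trh cells 5 genes were compared and 2 were higher, against 10.8% of all genes. Kcnc1 was at 66.5 and 154 CPM, a log2 ratio of 1.16 [0.25 to 2.25], and Kcnip1 was at 0.75 with an interval that holds 0. In Tcf7l2 cells 3 of 6 genes were higher and 1 lower, against 16.1% and 13.4%, and all 6 intervals held 0. In Crh and Neurod6 cells 1 and 2 genes could be compared, and 0 were called, against 13.3% and 12.5% higher and 10.7% and 7.56% lower of all genes. In cells outside all 6 gates 3 of 48 genes were higher and 2 lower, against 8.47% and 8.06%.

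A list of 24 genes with other symbols was also followed, of which 18 had at least 30 UMIs. It held genes of proteins that assemble with these channels. It also held Tmem175, Tmem38a and Tmem38b, which are other potassium or cation channels and not such partners. Between the libraries 5 were at least 1.5-fold higher in the Sim1 heterozygous library and 0 lower, where 7.81% and 9.27% of all genes were. These were Dlg1, a scaffold of Kv1 and inward rectifier complexes, at a log2 ratio of 0.84, and Adam22, an axonal Kv1 partner, at 0.60. The others were Cntnap1, at 0.59, and the Kv2 partners Amigo1 and Amigo2, at 0.60 and 0.73. These rested on few UMIs, 40 and 50 for Cntnap1, 39 and 49 for Amigo1 and 26 and 36 for Amigo2. Adam22, Cntnap1 and Amigo1 lay just past the 1.5-fold limit, and no interval was computed for the listed genes. In hormone-rich cells 2 listed genes were higher and 0 lower, against 1.7% and 4.88% of all genes. Adam23, a receptor for the secreted Kv1 partner Lgi1, had 122 UMIs, 4.77-fold above expectation, and Tmem38a, a cation channel of the endoplasmic reticulum, had 18, 2.26-fold above. Adam23 was lower in Neurod6 cells, at 0.48-fold, where 1.29% of all genes were called lower. In Trh cells Tmem175, a potassium channel of lysosomes, had 12 UMIs, 2.69-fold above, where 0.918% of all genes were called higher. In Foxb1, Crh and Tcf7l2 cells 0 of 18 were called. Of all genes 2%, 0.966% and 1.3% were higher in these gates and 4.05%, 1.51% and 1.62% lower. With 18 genes, the absence of a call at such shares does not set the listed genes apart. Dpp6, the membrane partner of Kv4 channels, was the most abundant at 225 and 254 CPM, above Kcnd2 in both libraries, and was not called in any gate. Abcc8, the sulfonylurea receptor that pairs with Kcnj11, had 42 and 36 UMIs and a log2 ratio of 0.06, where Kcnj11 had 1.15.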

How the data were processed

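The authors deposited raw UMI counts per gene and cell barcode, as 1 merged table and 1 table per library with identical values (24905 genes, 5283 barcodes, 11922773 UMIs). Per the submitters' processing notes, bcl2fastq, Picard, STAR 2.6.0b, Seurat 3 and the build mm10 were named without roles. The annotation, counter, use of strand and rule for calling cells were not given in the sources used here. Per the labels' protocols, cells were freed with papain, dead cells were removed by Sytox blue, and only 3' ends were amplified. The deposited counts were used as they are.

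Barcodes with under 300 genes were left out (1 control and 22 Sim1 heterozygous), and no cell had over 20% mitochondrial UMIs. No doublet caller was run, so doublets may remain. Counts were summed per library and gate and given as CPM with exact Poisson intervals, ratios with conditional exact binomial intervals and shares of cells with Clopper-Pearson intervals, all at 95%. The interval of observed over expected UMIs treats the expected count as fixed. UMIs of 1 cell are not independent, so these intervals are too narrow. Where a count was 0, the limit printed is 3 UMIs or 3 cells. The computation was tested on simulated data. Of the 59 genes 24 share exon bases with another gene in GENCODE M21 (mm10), which leaves their counts uncertain.

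The genes, gates, lists and rules were chosen with earlier results of these data known. Named with values were the 20 genes with the most UMIs, every gene called in a gate, every gene past 1.5-fold between the libraries with an interval that leaves out 0, and the leading gene of each family. Some of these are not reported here. Other genes were named after their values were seen where a comparison turned on them. Alternatives changed the cell filter, scaling, pseudocount, low-count filter, gate thresholds, reference cells, depth and deepest cells. The scripts used scipy 1.17.1, numpy 2.4.6, matplotlib 3.10.9 and pandas 2.3.3 under Python 3.11.15.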

Additional observations from a re-analysis of the deposited data

How the results depend on the processing

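Of the counts of genes called, 129 alternative values stayed within 1.5 times the value in the report and 53 did not. Single genes gave 380 values that moved little, 25 that moved and 6 that changed sign. The latter were Kcnh1 between Oxt-rich and Avp-rich cells at a gate of 20 UMIs (-0.10), Kcnj3 between the libraries in cells outside all gates (-0.0498), Kcnj5 within Foxb1 cells thinned to 1000 UMIs (-0.0133), Kcnmb4os2 between the libraries by the mean of per-cell CPM (0.0729) and outside all gates (0.0948), and Kcnt2 in thinned hormone-rich cells (-0.0817). Kcnh1, Kcnip4 and Kcnmb4 kept their direction in hormone-rich cells under all alternatives run, at log2 3.18 to 4.58, 2.12 to 2.76 and 2.44 to 2.84. Kcnj9 did so between the libraries (0.54 to 1.08) and within Foxb1 cells (1.19 to 1.45). The cause of the changes was not tested. Thinning and the use of each library alone leave fewer UMIs, and the limit of at least 100 UMIs leaves fewer genes.

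Between the libraries the mean of per-cell CPM gave 11 genes higher, members with at least 100 UMIs 2 higher and 1 lower, all 79 rows with a UMI 16 higher and 8 lower, and a pseudocount of 5 UMIs 1 lower. Thinning to 1000 UMIs gave 3 higher and 0 lower in hormone-rich cells, 0 higher in Crh and in Trh cells, 5 higher and 5 lower in Foxb1 cells, 1 higher and 0 lower in Neurod6 cells, 1 lower in Tcf7l2 cells, and 2 higher and 0 lower in astroglia-gated cells. The lower gate threshold gave 2 lower in hormone-rich cells, 0 higher and 2 lower in Crh cells, 0 higher in Trh cells, 5 lower in Foxb1 cells, and 1 higher and 0 lower in Neurod6 cells. Within gates it gave 3 genes lower in Foxb1 cells and 6 lower over all 6 gates. It gave 2 genes lower in Oxt-rich than in Avp-rich cells, and the higher threshold gave 1. The higher threshold also gave 0 lower in Neurod6 cells and 1 higher in Tcf7l2 cells. The mean of per-cell CPM gave 3 lower in hormone-rich cells, 4 lower in Crh cells, 2 higher and 3 lower in Trh cells, 1 lower in Neurod6 cells and 4 lower in astroglia-gated cells. Against cells outside all gates, 0 were higher in Trh cells and 0 lower in Neurod6 cells. Without the 1% deepest cells, 0 were higher in Trh cells and 1 lower in Neurod6 cells. The control library alone gave 0 higher in Crh cells, 0 higher in Trh cells, 0 lower in Neurod6 cells, and 2 higher and 0 lower in astroglia-gated cells. The Sim1 heterozygous library alone gave 1 higher and 0 lower in hormone-rich cells, 6 higher in Foxb1 cells, 1 higher and 1 lower in Tcf7l2 cells, and 2 higher and 0 lower in astroglia-gated cells. Without astroglia-gated cells, 5 were lower in Foxb1 cells. This last alternative, and Foxb1 cells thinned or kept at 1000 UMIs or more in the comparison of the libraries, were added after seeing the data. Shares over all genes were not computed under these alternatives, so their counts cannot be set against those of other genes. No paired analysis was possible because each genotype is 1 library.

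The 59 genes held 16015 UMIs over 5260 cells, so the absence of a call in a gate of 23 to 67 cells in a library does not show an equal level. Genotype and the pool of pups, its sort and its library cannot be told apart.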
